A study of Mus musculus with 8 samples.

Results

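Voltage-gated channels and potassium channels set the shape of the heart beat, and 96 genes for their pores and accessory subunits were measured in infarcted and untreated mouse left ventricle. The genes were taken by symbol, as all those beginning with Kcn, Cacn, or Scn or Hcn followed by a digit. Of these 96, 35 were kept because their brightest probe set reached a signal of 121 in at least 2 of the 8 arrays, as did 8195 of the 12393 genes on the array. Signal level alone chose the 35, so their levels are given as a description. The set is broader than voltage gating: the inward rectifiers (Kcnj), the two-pore channels (Kcnk) and the small-conductance channels (Kcnn) open without a voltage sensor and are included as potassium channels.

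Total RNA was taken from left ventricles of male mice, aged 2 to 4 months, of the strains C57BL/6, a common inbred strain, and MRL/MpJ, which heals ear punches unusually well. In each strain 1 array held untreated ventricle, with no sham operation, and 1 array each held ventricle from 3, 30 and 60 days after the LAD (left anterior descending) coronary artery had been tied, which infarcts the wall it feeds. Neither strain carried an engineered allele per the labels, and the number of animals behind an array is not stated. No group has a second array, and p-values measure only the spread between these arrays. The error in each test is what an additive model of strain and time point leaves unexplained (limma, 3 residual degrees of freedom). A call means an adjusted p under 0.05 over all 8195 genes.

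In a ventricular muscle cell, sodium channels start the action potential, L-type calcium channels hold its plateau and trigger contraction, and several potassium currents end it. Mouse ventricle repolarises mainly through fast transient outward and ultrarapid potassium currents, and inward rectifiers hold the resting potential. Small accessory subunits bind the pores and change how fast they open, how many reach the membrane and whether they conduct. Loss of repolarising potassium currents is a well known feature of the diseased heart.

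Kcne4 is the gene of the 35 that passed a test, though it met the signal limit through its ligated arrays alone. The 250 bases before its annotated start are shown because of that call (RefSeq, GRCm38.p6, 5′ to 3′ on the plus strand, chr1:78816661-78816910). Capitals mark matches, on either strand, to the E-box CANNTG.
Kcne4: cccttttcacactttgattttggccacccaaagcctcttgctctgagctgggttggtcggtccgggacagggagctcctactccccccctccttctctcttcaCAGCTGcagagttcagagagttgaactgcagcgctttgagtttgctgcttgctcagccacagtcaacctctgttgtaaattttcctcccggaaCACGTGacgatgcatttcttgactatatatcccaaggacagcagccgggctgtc
The stretch held 2 E-boxes, and 0 matches to the GC box GGGCGG, the TATA box TATAAA, the AP-1 site TGANTCA or the M-CAT element CATTCC. Over 32851 stretches of the same length, before the starts that RefSeq lists, an E-box occurred in 66.2%, a GC box in 32.7%, a TATA box in 12.4%, an AP-1 site in 6.75% and an M-CAT element in 12.6%. GC content was 53.2%, against a median of 52.4% over those stretches. A match is a run of letters, not a site shown to be bound.

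The arrays were close in median signal, from 112.8 to 139.5. The C57BL/6 day 30 array stood apart: its correlation with the other arrays over the genes kept was 0.844 to 0.877, while each other array reached at least 0.921 with some array. Its highest signal was 75193, against 38118 over the other arrays. All 10 cardiomyocyte markers were kept, with summed signals of 190889 and 212964 in the untreated arrays and 182733 to 343276 in the ligated ones. The 343276 belongs to C57BL/6 day 30, and the other ligated arrays lay at 182733 to 252088. Of the atrial markers, Sln (sarcolipin) had a signal of 6.1 in MRL/MpJ day 3 and 6.7 in C57BL/6 day 60 but 2932 to 3254 in C57BL/6 day 30, MRL/MpJ day 30 and MRL/MpJ day 60. The share of atrial tissue in the samples is not given by the labels. In bulk tissue, fewer cells of a type and less RNA per cell cannot be told apart.

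Potassium channel accessory subunits included the only gene that passed. Kcne4 encodes a single-pass membrane peptide that inhibits the delayed rectifier formed by Kcnq1 and several Shaker-type channels. Without ligation its signal was 13.6 (C57BL/6) and 58.6 (MRL/MpJ). On day 3 it was 246.6 in C57BL/6 and 252.6 in MRL/MpJ, on day 30 it was 242.5 and 321, and on day 60 it was 218.1 and 385. Every ligated array lay above both untreated arrays. C57BL/6 was highest on day 3 and MRL/MpJ on day 60. Kcne4 passed the signal limit through its ligated arrays alone, so it could enter the test only as a gene that was higher there. Kcne4 rose in ligated hearts, with a log2 of 2.31 over untreated (6 arrays against 2, SE 0.24, limma adjusted p = 0.0337), a 4.97-fold change with the offset of 28.6 added, higher in 6 of 6 comparisons with the untreated array of the strain. Of the 35 genes 1 was called, in a background of 0.195% of all genes tested (16 of 8195, of which the 15 higher make 0.183%). At an unadjusted p under 0.05 it was also 1 of the 35, against 10.4% of all genes. The change from the strain's own untreated array ranged between 2.55 and 2.71 for C57BL/6 and between 1.69 and 2.25 for MRL/MpJ, whose untreated signal was higher.

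The days taken singly gave like values for Kcne4: a log2 of 2.20 on day 3 (limma adjusted p = 0.0750), 2.34 on day 30 (adjusted p = 0.0817) and 2.40 on day 60 (adjusted p = 0.0587), each with an SE of 0.30 and sharing the untreated arrays. The call ended without either untreated array (limma adjusted p = 0.311 without C57BL/6, 0.478 without MRL/MpJ), either day 60 array (0.0825 and 0.108) or the C57BL/6 day 30 array (0.0503), while the log2 stayed between 1.98 and 2.65. With no signal limit its adjusted p in limma was 0.101. It has 1 probe set, and the untreated C57BL/6 signal lies under the offset, which compresses the fold.

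Summed markers of macrophages and fibroblasts, cells that enter or expand in the infarct, were like Kcne4 higher in every ligated array. The 8 macrophage markers, all kept, summed to 4074 and 6150 in the untreated arrays and 8435 to 11630 in the ligated ones, and the 8 fibroblast markers to 9060 and 9439 against 22689 to 55853. Both sums were highest in MRL/MpJ day 3, while Kcne4 was highest in MRL/MpJ day 60. Singly, C1qb and Csf1r of the macrophage markers, and Pdgfra and Lum of the fibroblast ones, overlapped between untreated and ligated arrays. The 7 endothelial markers summed to 3556 and 4227 untreated and 3000 to 3678 ligated, ranges that overlap. None of these markers was at 0 in every array. The part of these cells in the Kcne4 signal was not tested. Against strain, Kcne4 stood higher in MRL/MpJ in 4 of 4 pairs (log2 0.55, SE 0.21, limma adjusted p = 0.554), which did not pass.

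**Figure D1:**
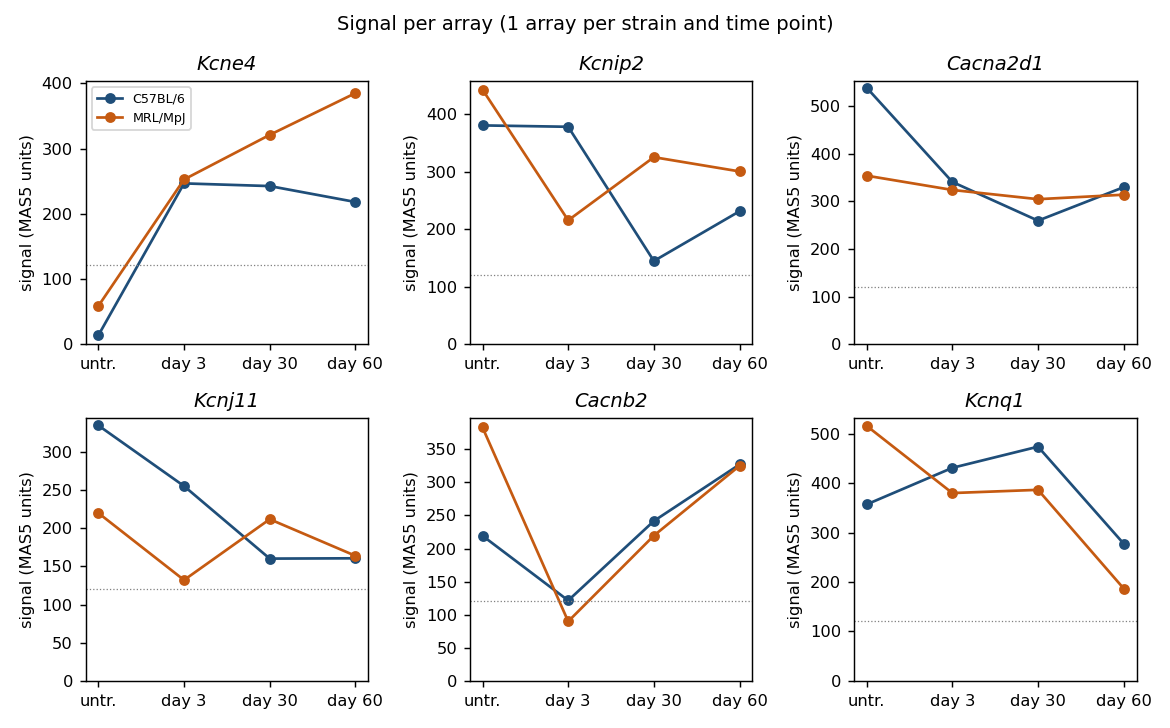
Signal (MAS5 units, linear axis from 0) of 6 channel genes in each of the 8 arrays, by time point, with C57BL/6 in blue and MRL/MpJ in orange and 1 array per point. The dotted line is the signal limit of 121: Kcne4 lies under it in both untreated arrays (13.6 and 58.6) and over it in all ligated ones, while Cacnb2 is lowest on day 3 in both strains.

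Kcnip2 encodes the subunit that the fast transient outward channel of the ventricle needs. Its signal was 380.8 and 443.1 in the untreated arrays of C57BL/6 and MRL/MpJ, 378.4 and 215.6 on day 3, 144.8 and 325.5 on day 30, and 231.4 and 300.7 on day 60. Each ligated array lay below both untreated arrays, though C57BL/6 day 3 by only a few units. The log2 difference was -0.63 (SE 0.32, limma adjusted p = 0.540) and did not pass. Its other, dimmer probe set pointed the other way, with a log2 of 0.24 and signals from 55.3 to 133. Of the 35 genes, 1 had all ligated arrays above both untreated arrays, against 6.71% of all genes tested, and 2 had all of them below, against 7.11%.

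The other accessory genes of potassium channels did not separate by ligation. Kcnmb1 encodes the beta subunit of the large-conductance calcium-activated channel in smooth muscle. Its signal was 66.9 and 151.6 in untreated C57BL/6 and MRL/MpJ, 19.3 and 187.4 on day 3, 251.2 and 165.1 on day 30, and 95.3 and 173.8 on day 60. The C57BL/6 arrays ranged widely, and MRL/MpJ stood higher in 3 of 4 pairs (log2 0.82, SE 0.38, limma adjusted p = 0.650). Its dimmer probe set gave -0.59. The 8 smooth muscle and pericyte markers summed to 5768 to 7906 over all arrays. Kcnmb2, a related beta subunit, had signals from 55.3 to 221, and Kcnab1, a cytoplasmic beta subunit of Shaker-type channels, from 94 to 258.5.

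Voltage-gated potassium pores made up 12 of the 35 genes, and 0 were called in any comparison. Kcnd2 encodes the pore of the fast transient outward current. Its untreated signals were 112.3 in C57BL/6 and 228.3 in MRL/MpJ, followed by 160.4 and 110.9 on day 3, 94.8 and 104.5 on day 30, and 122.6 and 107.1 on day 60. The untreated MRL/MpJ array was the highest, and the 3 ligated MRL/MpJ arrays lay close together at less than its level. The change on ligation differed between the strains by a log2 of -1.03 (SE 0.46, limma adjusted p = 1.0), a difference that did not pass. The 2 other probe sets of Kcnd2 also gave ligated log2 values below 0, at -0.41 and -1.29, beside -0.40 for the set used. In the first, C57BL/6 day 30 was highest at 163. In the second, C57BL/6 fell as well, from 72.7 untreated to 8.8 on day 60.

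Kcna5, the pore of the ultrarapid current, stood at 289.7 (C57BL/6) and 282.8 (MRL/MpJ) before ligation. It was 423 and 101.2 on day 3, 138.2 and 145.4 on day 30, and 203.4 and 291.6 on day 60. The strains lay furthest apart on day 3, and on day 30 both were below their untreated arrays. The day 30 difference was a log2 of -0.89 (SE 0.50, 2 arrays against 2, limma adjusted p = 0.507).

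Kcnq1 encodes the pore of the slow delayed rectifier, a channel that Kcne4 protein can inhibit. Its signal was 357 and 515.9 in untreated C57BL/6 and MRL/MpJ, 431 and 380 on day 3, 473.8 and 386.5 on day 30, and 277.6 and 186.9 on day 60. Both strains were at their lowest on day 60, at a log2 of -0.83 from untreated (SE 0.29, unadjusted p = 0.0222, limma adjusted p = 0.384). Kcnh2, the pore of the rapid delayed rectifier, had 318.2 and 523.6 in the untreated arrays and 262.3 to 396.4 in the ligated ones. The untreated MRL/MpJ array was again the highest of the 8.

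Kcnh3, a gene of the ether-a-go-go family known mainly from brain, had the largest difference between the strains' changes. Its signal in C57BL/6 was 104.1 untreated, then 26.5, 113.1 and 83.2 on days 3, 30 and 60, and in MRL/MpJ it was 32.4, then 114.1, 129.8 and 179.2. The ligated MRL/MpJ arrays all lay above the untreated one, and those of C57BL/6 lay on both sides. The interaction was a log2 of 1.93 (SE 0.57, unadjusted p = 0.0121, limma adjusted p = 1.0). Kcnh3 reached the limit in 2 arrays, both of MRL/MpJ and both ligated, so the limit itself favours the direction it shows. Without the untreated MRL/MpJ array its ligated difference turned from a log2 of 0.49 to -0.47. For this interaction limma called 0 of the 35 genes and 0% of all genes. At an unadjusted p under 0.05 it gave 1 of the 35, Kcnh3 itself, and 2.04% of all. Below 0 lay 23 of the 35, against 51.9% of all genes. In 5 of the 35 all ligated arrays of C57BL/6 lay on one side of their untreated array and those of MRL/MpJ on the other. That is 14.3%, against 5.83% of all genes, and the limit favours Kcns2 and Kcnn2 among them.

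Among the remaining pores, Kcna7, a Shaker-type channel of muscle, stood higher in MRL/MpJ in 4 of 4 pairs (log2 0.42, SE 0.18, limma adjusted p = 0.625), with C57BL/6 arrays at 157.5 to 270.4 and MRL/MpJ arrays at 209.7 to 376.5. Kcna2 and Kcna6, known from neurons, had signals of 61.4 to 196.1 and 100.2 to 195.1. Kcnc1, Kcnh1, Kcnh7 and Kcns2 ranged from 52.5 to 269.5 over all arrays. Markers of nerve and glia were weak, with 2 of 6 measured ones kept and summed signals of 426.3 to 872.6, highest in C57BL/6 day 30.

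Inward rectifiers gave 5 genes kept of 13, with 0 called in any comparison. Kcnj11 and Kcnj8 encode pores of ATP-sensitive potassium channels, of heart muscle and of vessels respectively, which open when cellular ATP falls. Kcnj11 began at 334.6 (C57BL/6) and 219.9 (MRL/MpJ) without ligation and was 255.2 and 132.1 on day 3, 160.2 and 211.8 on day 30, and 160.6 and 163.9 on day 60. All ligated arrays lay below the untreated array of their strain, though C57BL/6 day 3 lay above untreated MRL/MpJ, so the groups overlap. The log2 difference was -0.55 (SE 0.26, limma adjusted p = 0.528). Kcnj8 had 307.6 and 336.8 untreated and 232.6 to 340.4 ligated, with a log2 of -0.15 (SE 0.20).

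Abcc9, the sulphonylurea receptor that forms the cardiac and vascular channel with these pores, is no member by symbol but stood low with Kcnj11. It had 1019 and 836.1 in the untreated arrays, 719.3 and 412.5 on day 3, 399.9 and 541.5 on day 30, and 580.2 and 565.2 on day 60. Every ligated array lay below both untreated arrays, at a log2 of -0.78 (SE 0.25, unadjusted p = 0.0159, limma adjusted p = 0.323).

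Kcnj3 and Kcnj5 encode the pore of the acetylcholine-gated channel, best known from atria and the sinus node. Kcnj3 had 512.7 and 360.4 in untreated C57BL/6 and MRL/MpJ and 308.2 to 438.1 in the ligated arrays. Kcnj5 had 135.3 and 252.4 untreated, 91.8 and 126.1 on day 3, 230.2 and 182.6 on day 30, and 77.7 and 158.4 on day 60. Kcnj5 was lowest in C57BL/6 day 60, where the atrial marker Sln was at 6.7, and low in MRL/MpJ day 3, where Sln was at 6.1. It was also low in C57BL/6 day 3, where Sln was at 858.4. The 7 atrial markers, all kept, summed to 4988 and 7615 in the untreated arrays and 10457 to 52811 in the ligated ones, most of it Nppa, a gene that stressed ventricle also makes. In MRL/MpJ day 3 Nppa was 28355 of a sum of 29090 while Myl7 (97.6), Myl4 (247.5) and Sln lay below both untreated arrays, and in C57BL/6 day 60 it was 17996 of 18582 with Myl7 at 11.9 and Myl4 at 153.6. The part of atrial tissue in the Kcnj5 values was not tested. Kcnj6, a related subunit, had a day 30 log2 of 0.72 (SE 0.27, unadjusted p = 0.0287, limma adjusted p = 0.404), and 3 of its 4 other probe sets gave the opposite sign.

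**Figure D2:**
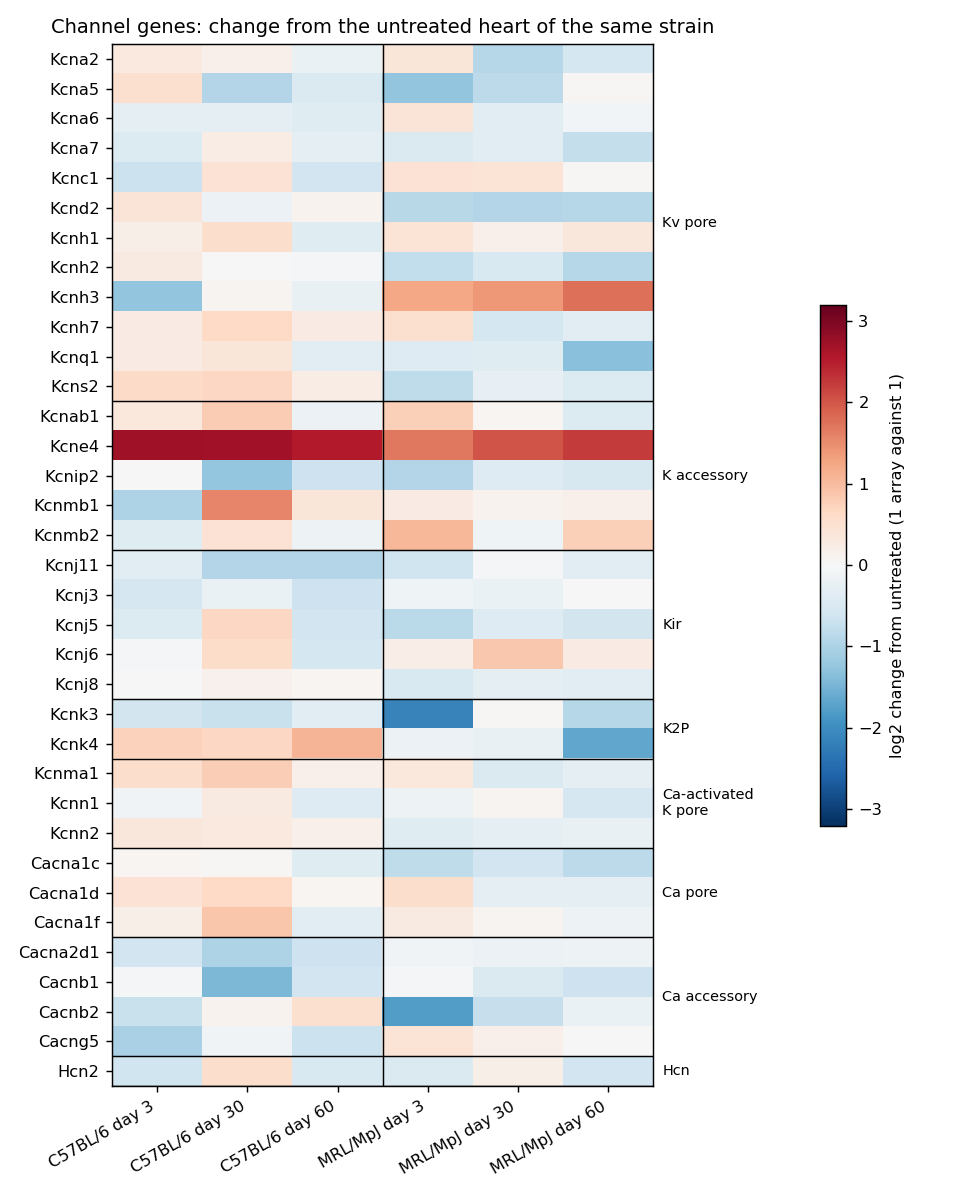
Heat map of the log2 change of the 35 channel genes (rows, grouped by kind of channel) from the untreated array of the same strain, for the 3 ligated arrays of each strain (columns); each cell is 1 array against 1, with red higher and blue lower. Kcne4 is red in all 6 columns, and Kcnj11, Kcnip2, Cacna2d1 and Cacnb1 are pale to blue in each.

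Two-pore potassium channels carry background current, and Kcnk3 (TASK), known from atria and the pulmonary artery, was the channel gene with the largest strain difference. Its signal in C57BL/6 was 804.3 untreated, then 521.7, 479.7 and 618.7 on days 3, 30 and 60. In MRL/MpJ it was 425 untreated, then 75, 440 and 213.2. All C57BL/6 arrays lay above all MRL/MpJ arrays, the day 30 pair being close. The difference was a log2 of -1.21 in MRL/MpJ (SE 0.34, 4 arrays against 4, lower in 4 of 4 pairs, unadjusted p = 0.00802, limma adjusted p = 0.357) and did not pass. Leaving out a day 3 array of either strain moved it to -0.80, and leaving out a day 30 array to -1.57.

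The other probe sets of Kcnk3 gave strain differences of -0.97 and 0.09, so they do not share one direction. For all ligated arrays against untreated the 3 probe sets did, with log2 values of -0.78, -1.12 and -0.73. On day 30 they did not, with -0.33, -1.73 and 0.06 in the same order. On day 3 the probe set used gave -1.36 (SE 0.48, unadjusted p = 0.0227, limma adjusted p = 0.688), and -0.56 without the MRL/MpJ day 3 array, so 1 array carries most of that value. In that array Sln was at 6.1 and Kcnk3 at 75, and in C57BL/6 day 60 Sln was at 6.7 and Kcnk3 at 618.7. The part of atrial tissue in the Kcnk3 values was not tested.

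Strain as a whole gave 0 calls among the 35 genes, against 0.22% of all genes (18 of 8195, limma). At an unadjusted p under 0.05 there were 2, Kcnk3 and Kcne4, against 7.96% of all genes. All MRL/MpJ arrays lay below all C57BL/6 arrays for 1 of the 35 genes, Kcnk3, against 2.37% of all genes, and above them for 0, against 1.82%. The median log2 over the 35 was -0.14, with 21 below 0, and over all genes tested -0.02, with 53.3% below 0. Kcnk4, a mechanosensitive two-pore channel, had C57BL/6 arrays at 92.1 to 226.3 and MRL/MpJ arrays at 24.7 to 140.1, at a log2 of -0.66 (SE 0.39, limma adjusted p = 0.717).

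**Figure D3:**
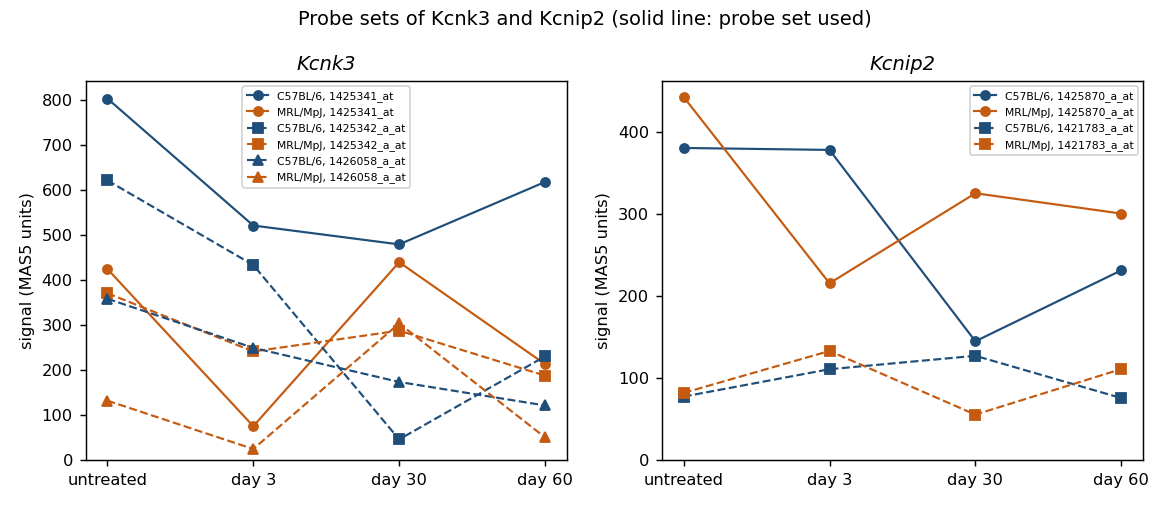
Signal (MAS5 units, linear axis from 0) of each probe set of Kcnk3 and Kcnip2 by time point, 1 array per point, C57BL/6 in blue and MRL/MpJ in orange, with a solid line for the probe set used and dashed lines for the others. For Kcnk3 the solid lines keep the strains apart (479.7 to 804.3 against 75 to 440) while the dashed lines cross, and for Kcnip2 the dimmer probe set stays between 55.3 and 133.

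Calcium-activated potassium channels were represented by 3 pores. Kcnma1, the large-conductance channel of smooth muscle and other cells, had 159.9 and 212.6 in untreated C57BL/6 and MRL/MpJ, 251.1 and 275 on day 3, 298.5 and 146.9 on day 30, and 183.3 and 165 on day 60. It stood above untreated in both strains on day 3 (log2 0.45, SE 0.33, limma adjusted p = 0.851). The small-conductance genes Kcnn1 and Kcnn2 had 98.4 to 229.8 and 75 to 133.9.

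L-type calcium channels supply the trigger for contraction, and Cacna1c encodes their pore in ventricle. Its untreated signals were 700.7 in C57BL/6 and 774.5 in MRL/MpJ, followed by 730.8 and 426.8 on day 3, 713.8 and 497.8 on day 30, and 524.1 and 422.6 on day 60. The ligated MRL/MpJ arrays all lay below the untreated one, and in C57BL/6 only day 60 lay clearly below. On day 60 the log2 difference was -0.62 (SE 0.28, limma adjusted p = 0.490). Cacna1d, the related pore of pacemaker cells, was highest in MRL/MpJ day 3 at 308.2 and ranged from 105.7 to 200.8 elsewhere. Its dimmer probe set was highest in C57BL/6 day 3 at 125.5, with a strain difference of -0.43, against 0.48 for the set used. Cacna1f, known from retina, was highest in C57BL/6 day 30 at 362.1 and ranged from 133.1 to 214.9 elsewhere.

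Accessory calcium channel subunits bring the pore to the membrane. Cacnb2, the main cardiac beta subunit, had 219.3 and 383 in the untreated arrays, 121.5 and 89.9 on day 3, 241.6 and 219.5 on day 30, and 327 and 325 on day 60. Both day 3 arrays lay below every other array. The day 3 difference was a log2 of -1.26 (SE 0.30, 2 arrays against 2, unadjusted p = 0.00343, limma adjusted p = 0.338), and on day 60 the value was 0.15 (SE 0.30).

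Cacna2d1, the extracellular subunit of the channel, had 538.8 and 354 untreated, 340.8 and 324 on day 3, 259.5 and 304.6 on day 30, and 329.8 and 314 on day 60. All ligated arrays lay below both untreated arrays, with most of the distance in C57BL/6. The log2 was -0.46 (SE 0.22, limma adjusted p = 0.514), and its dimmer probe set gave -0.85, the same direction. Cacnb1, the beta subunit of skeletal muscle, had 242.1 and 226.8 untreated, 230.4 and 222.2 on day 3, 72.1 and 157.3 on day 30, and 149.8 and 133.1 on day 60. Its day 30 value was -0.94 (SE 0.31, limma adjusted p = 0.350). It was -1.43 without the MRL/MpJ day 30 array and -0.45 without the C57BL/6 day 30 array, fits in which day 30 rests on 1 array. Its dimmer probe sets gave -0.17 and 0.57 on day 30, and both had the opposite sign for ligated hearts as a whole. Cacng5 had signals from 97.8 to 228.8. Its dimmer probe set gave a strain difference of 0.33, against -0.26 for the set used.

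Hcn2 encodes a pacemaker channel opened by hyperpolarisation. It had 186.1 and 148 untreated, 109.2 and 99.1 on day 3, 289.5 and 171.3 on day 30, and 124.2 and 87.5 on day 60. Both strains stood lower on days 3 and 60 and higher on day 30, and C57BL/6 stood above MRL/MpJ in 4 of 4 pairs (log2 -0.36, SE 0.17, limma adjusted p = 0.656). Of the conduction tissue markers 4 of 6 were measured and 2 kept, Tbx3 and Cntn2. The 4 summed to 324.1 and 325.3 in untreated arrays and 147.4 to 461.9 in ligated ones. This sum was highest in C57BL/6 day 30 and lowest in MRL/MpJ day 60, as for Hcn2. C57BL/6 day 30 is the array that stood apart, and the nerve and glia markers were also highest there, at 872.6. The part of conduction tissue in the Hcn2 values was not tested.

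**Figure D4:**
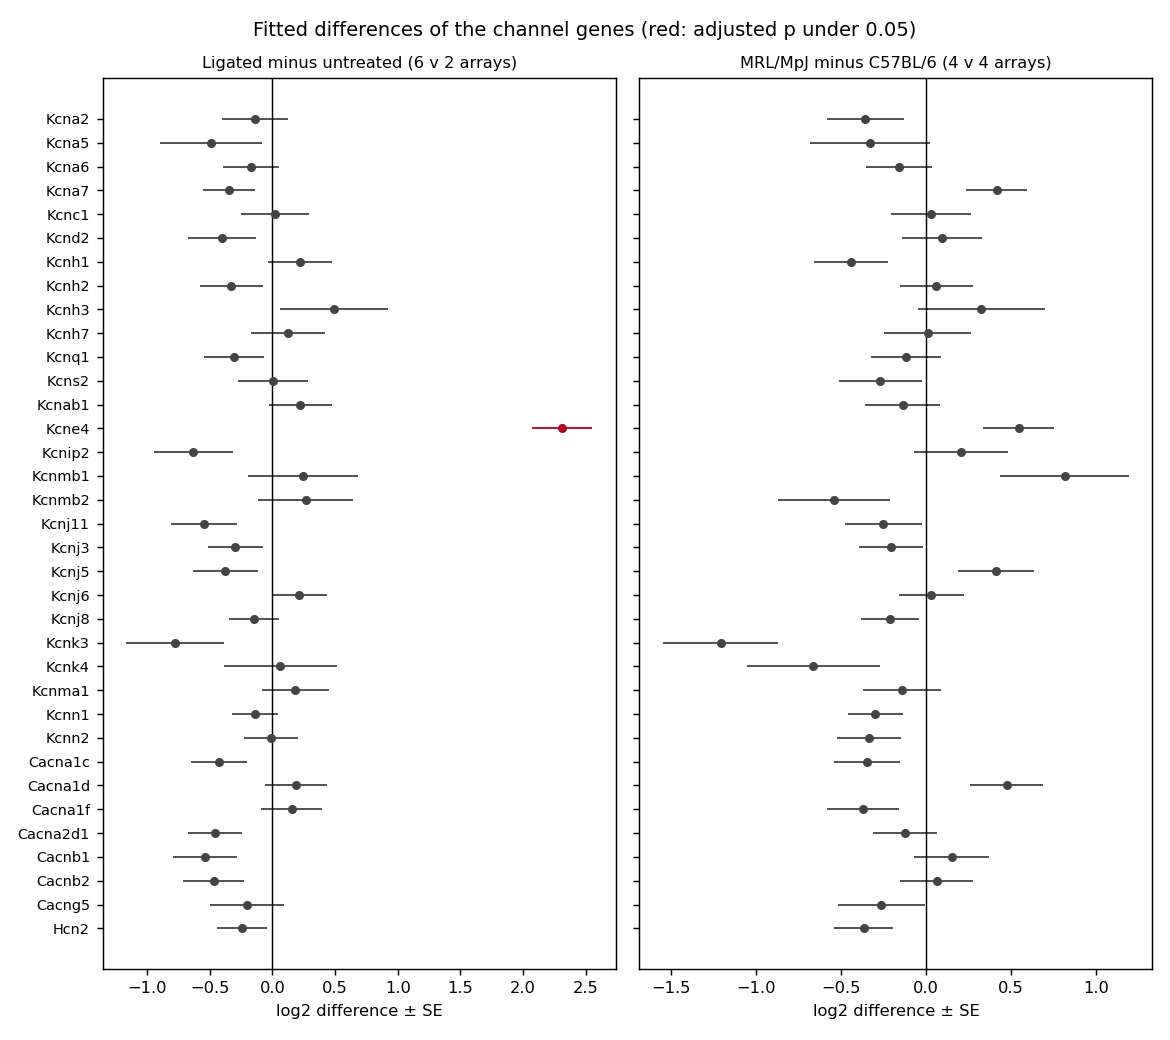
Fitted log2 differences (points) with their SE (bars) for the 35 channel genes, ligated minus untreated on the left and MRL/MpJ minus C57BL/6 on the right, with genes called at an adjusted p under 0.05 in red. Kcne4 at 2.31 is the one red point, a gene that met the signal limit through its ligated arrays alone. Kcnk3 at -1.21 is the farthest from 0 in the strain panel.

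By day, limma called 0 of the 35 genes on day 3, day 30 and day 60, against 0%, 0.0122% and 0.0366% of all genes. At an unadjusted p under 0.05 there were 3 on day 3 (Kcne4, Kcnk3 and Cacnb2; 6.53% of all genes), 3 on day 30 (Kcne4, Cacnb1 and Kcnj6; 11% of all genes) and 2 on day 60 (Kcne4 and Kcnq1; 10.6% of all genes). The median log2 of the 35 was -0.12 on day 3, 0.02 on day 30 and -0.29 on day 60, and that of all genes 0.02, -0.01 and -0.06. On day 3, 23 of the 35 lay below untreated and on day 30 16, against 47.8% and 50.5% of all genes. On day 60, 30 of the 35 lay below untreated, against 57.5% of all genes. The exceptions were Kcne4, Kcnh3, Kcnmb2, Kcnmb1 and Cacnb2. By kind, 11 of 12 voltage-gated potassium pores, 5 of 5 inward rectifiers and 3 of 3 calcium pores had a day 60 log2 below 0, with medians of -0.25, -0.33 and -0.26, none of them called. Over all ligated arrays 21 of the 35 lay below untreated, against 53.2% of all genes, with a median of -0.15 against -0.03.

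Within each strain, with 1 array against 1 and no test, the day 60 medians were alike: -0.33 in C57BL/6, with 24 of 35 below, and -0.33 in MRL/MpJ, with 25 below, where all genes had medians of -0.05 and -0.07 and 55.2% and 56.4% below. On day 30 they lay apart, at 0.30 in C57BL/6 with 25 above and -0.26 in MRL/MpJ with 23 below, where all genes had 0.06 and -0.06. The C57BL/6 day 30 array is the one that stood apart from the others, and without it the median of the 35 fitted for day 30 was -0.16. Counted at 2-fold or more, C57BL/6 had 1 of 35 genes higher and 2 lower on day 3 (2.43% and 1.33% of all genes), 2 and 2 on day 30 (7.91% and 6.94%), and 2 and 0 on day 60 (3.64% and 2.11%). MRL/MpJ had 3 higher and 3 lower on day 3 (4.98% and 2.64%), 2 and 0 on day 30 (3.09% and 2.51%), and 2 and 2 on day 60 (4.56% and 2.86%). Kcne4 was among those higher in all 6.

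Sodium channels could not be followed. None of the 9 sodium channel genes measured, 8 pores and the beta subunit Scn3b, was kept, and their signals ran from 3.2 to 140.3. Among the measured genes listed as carriers of cardiac or vascular currents, 16 were kept and 11 were too dim. Among the dim ones, Kcnj2, the main inward rectifier of ventricle, had 2.8 to 47.5, Kcnd3, the other transient outward pore, 4.7 to 88.1, and Kcne1 7.2 to 123.5. A low signal of 1 probe set sets no bound on the transcript. Of the 61 genes left out, 17 reached the limit in 1 array and 44 in none. The nearest inside by the second highest array were Kcnh7 at 123.5 and Kcnn2 and Kcns2 at 126.7, and the nearest outside Cacna1a at 116.4 and Scn3b at 116.3. In 3 of the 61 genes left out the strains did not overlap, MRL/MpJ being higher in 1 and lower in 2. Among all genes kept the shares were 1.82% higher and 2.37% lower. No share was taken over all genes under the limit, so the count has no background. The higher one, the two-pore gene Kcnk7, had 111.2, 195, 101.1 and 81.3 in MRL/MpJ and 26.9, 37.7, 42.3 and 27.8 in C57BL/6, in order of time. The lower ones were Kcnip4, with 56.2 to 63.6 against 65.6 to 103.9, and Kcnn4, with 11.4 to 13.4 against 16.2 to 84.5. All MRL/MpJ signals of Kcnn4 lay under the offset of 28.6. So did those of C57BL/6 (16.2 untreated, 26 on day 3 and 17 on day 60), except day 30 at 84.5. All 3 were singled out after their values were seen.

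Partner genes of the channels, 6 lists with 97 genes kept, had 0 calls in limma in any of the 6 comparisons, the smallest adjusted p being 0.0606 for Slc12a2 between the strains. For ligated against untreated the median log2 was -0.11 over 19 channel partners and scaffolds, -0.07 over 12 ion pumps and exchangers, -0.10 over 16 genes of intracellular calcium release and -0.08 over 5 gap junction genes. It was 0.03 over 22 chloride, TRP and other channels and -0.14 over 23 transcription factors of electrical genes, and -0.03 over all genes. Slc12a2, a sodium, potassium and chloride cotransporter, had C57BL/6 arrays at 282.7 to 342.2 and MRL/MpJ arrays at 590.9 to 820.3, groups that do not overlap (log2 1.11, SE 0.16). Fxyd6, a modulator of the sodium pump, had 59.8 and 94.2 untreated and 130.1 to 479.2 ligated (log2 1.69, SE 0.33, limma adjusted p = 0.0944). Trdn, triadin of the calcium release complex, had 1571 and 1554 untreated and 575.7 to 1248 ligated (log2 -0.74, SE 0.24, limma adjusted p = 0.341). Ano10, an anoctamin gene, had 766.7 and 823.7 untreated and 159.2 to 524 ligated (log2 -1.21, SE 0.35, limma adjusted p = 0.275). Rest, a repressor of neuronal and fetal cardiac channel genes, had 120.9 and 117.9 untreated and 175.6 to 221.6 ligated (log2 0.59, SE 0.19, limma adjusted p = 0.321). Fxyd6 and Rest reached the signal limit of 121 through ligated arrays alone, so they could enter the test only as genes higher there. The same holds for their place in the count that follows. Of the 97 list genes, 3 had all ligated arrays above both untreated arrays (Fxyd6, Rest and Clic1) and 13 had all of them below (Trdn, Ano10 and Abcc9 among them), which is 3.09% and 13.4%, beside 6.71% and 7.11% of all genes. The genes named here were singled out after their values were seen.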

How the data were processed

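Left ventricular RNA of 8 mouse groups was measured on Affymetrix arrays, 1 per group. The deposited intensity values, on a linear scale for 22626 probe sets, were made by the authors with MAS5, per the submitters' processing notes. Detection calls were not used, and the number of arrays limits the precision. Probe sets with exactly 1 symbol in the platform annotation (20380) were used, and the one with the highest mean log2 signal stood for its gene. Signals were put on a log2 scale after adding 28.6, their 20th percentile. limma 3.58.1 (R 4.3.3; lmFit, eBayes, Benjamini-Hochberg adjustment) fitted strain and time point to all arrays; a term for ligated MRL/MpJ gave the interaction, with 2 residual degrees of freedom. The procedure was tested on simulated data. Alternatives changed the offset, normalization, signal limit, probe set rule and variance prior, or left out 1 array.

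The members and lists were chosen with earlier results of these data known. Named were called genes, the 5 largest rises and falls of a comparison, known current carriers, members nearest the limit and those whose probe sets differ in sign.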

Additional observations from a re-analysis of the deposited data

Results flagged for a closer look

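In 5 of the 35 genes ligated C57BL/6 arrays all lay on one side of their untreated array and those of MRL/MpJ on the other. That is 14.3%, against 5.83% of all genes. The mean log2 change was 0.82 in C57BL/6 and -0.70 in MRL/MpJ for Kcnk4, 0.51 and -0.50 for Kcns2, -0.61 and 0.20 for Cacng5, 0.28 and -0.30 for Kcnn2, and 0.0728 and -0.37 for Kcnj8. The interaction in limma had adjusted p = 1.0 for each, with the smallest unadjusted p of 0.0767 for Kcns2. Kcns2 and Kcnn2 reached the signal limit in 2 ligated C57BL/6 arrays and in no other array, so the limit itself favours the direction they show. The 3 ligated values of a strain share 1 untreated array. The dimmer probe set of Cacng5 did not repeat the pattern. Its MRL/MpJ signals were 60.6 untreated, then 101.7, 53.4 and 35.7 on days 3, 30 and 60.

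Channel genes under the signal limit, which entered no comparison, reached it in 1 ligated array above both untreated arrays in these cases. In C57BL/6 day 30 these were Kcna3 at 233.1, Cacna1a at 201.8, Kcnip1 at 188.2, Cacng6 at 177.3, Cacng7 at 172.5, Cacng3 at 153.6, Kcnab2 at 150.6, Kcnd1 at 138.4 and Cacna1h at 135.5. In MRL/MpJ day 3 they were Kcnk7 at 195, Scn3b at 140.3, Kcna1 at 135.8 and Cacna2d3 at 133.9. Kcnab3 reached 132.8 and Kcnj12 128.2 in C57BL/6 day 3, and Kcnip3 141.7 in MRL/MpJ day 30. The C57BL/6 day 30 array gave 9 of these, and it is the array with the lowest correlations and the highest median signal (139.5).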

How the results depend on the processing

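The log2 of Kcne4 in ligated hearts kept its sign in every alternative, but its call ended with an offset of 1 (log2 3.21, limma adjusted p = 0.0510), quantile normalization (2.26, 0.0603) and no signal limit (2.31, 0.101), where 0 of the channel genes were called. Leaving out 1 array gave a log2 between 1.98 and 2.65 and 0 to 1 channel genes called. Kcne4 was called, as 1 channel gene, on each day with the limit on the mean signal and with an intensity trend, and on day 60 with an offset of 100. Leaving out 1 array gave 0 to 2 calls on day 30 and 0 to 1 on day 60. All genes called for ligated hearts numbered 16, against 1 with an offset of 1, quantile normalization or no limit, 68 with an offset of 100, 43 with the limit on the mean signal and 104 with the trend; the cause was not tested. For strain they numbered 18, against 7 to 43 in the alternatives, with 0 channel genes in each.

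Leaving out 1 array turned the sign of these uncalled values: Kcnh3 ligated (-0.47 to 1.46), on day 30 (-0.23 to 1.70) and on day 60 (-0.20 to 1.73), Kcnmb1 ligated (-0.0574 to 0.55) and on day 30 (-0.0706 to 1.73), Kcnmb2 ligated (-0.0354 to 0.57) and on day 60 (-0.0141 to 0.61), Kcnh7 on day 3 (-0.0488 to 0.80) and Cacnb2 on day 60 (-0.29 to 0.60). The median of the 35 genes moved by less than the median SE of a gene in every alternative, but that of day 30 (0.02) changed sign, ranging from -0.22 to 0.16 with 1 array left out. Applying the limit to probe sets before the brightest was taken, an alternative chosen after seeing the data, added 1 gene, Cacna1h. Without an untreated array the interaction could not be fitted, and a lone array is assumed to vary like the others. No paired analysis was possible because the labels give no replicate numbers, beyond the fit itself, which takes strain differences within time points. The offset compresses low signals most, and 4 of the 35 genes (Kcne4, Kcnh3, Kcnk4 and Kcnmb1) have a signal at or under it in some array.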
